A study of Mus musculus with 14 samples.

Results

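The respiratory chain of the liver was examined through the nuclear genes that encode its subunits, complexes I to V, in mice fed a high-fat diet. Members were the genes whose symbols open with Nduf and a subunit letter, Sdh, Uqcr, the subunit classes 4 to 8 of Cox, or Atp5, and that had a row of their own in the deposited table. They numbered 81 of 19938 genes with such a row. By symbol, 35 belong to complex I, 4 to complex II, 8 to complex III, 17 to complex IV and 17 to complex V. For a gene with several rows the row with the highest mean over the 14 arrays stood for it, and 105 rows in all carried a member's symbol alone. Whether the row chosen lies at the gene's own locus was not checked. Cox7c and Ndufb4 lay only on rows shared with a second gene, and they and the subunits encoded by mitochondrial DNA were not analysed here.

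Livers came from male C57BL/6 mice of 24 weeks of age that had eaten a high-fat diet for 20 weeks. The 7 HFM mice were given mesenchymal stem cells (MSCs) through the tail vein and the 7 HFS mice saline, called PBS in part of the methods, and livers were flash frozen 24 h later. The MSCs were human bone marrow cells of a single donor that carried GFP, put into mice with a host immune system, and no mouse on a normal diet was on the arrays. Total RNA was measured on Affymetrix Mouse Gene 1.0 ST arrays, 1 per mouse, and the values are log2 expression. The study asked how MSC treatment alters hepatic mitochondria.

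The respiratory chain sits in the inner mitochondrial membrane. Complexes I and II pass electrons from NADH and succinate to ubiquinone, complex III passes them on to cytochrome c, and complex IV hands them to oxygen. Complexes I, III and IV pump protons as they do so, and complex V, the ATP synthase, lets protons flow back and makes ATP. Most subunits are encoded in the nucleus, and their genes are widely expressed and abundant in hepatocytes, which are rich in mitochondria. The factors NRF1, GABPA (an ETS factor), ERR alpha and YY1 are known to bind promoters of many of these genes.

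Some short letters, which the choice of members did not use, lay in a larger share of the subunits' promoters than of all promoters. RefSeq windows of 300 bases (GRCm38.p6, 250 before to 50 after the start) were at hand for 66 of the 81 members and for 27025 genes in all. The NRF1 letters, which are 2 copies of GCGC with 2 bases of any kind between them, lay on either strand in 24.24% of the members' windows, against 6.43% of all windows. The ETS letters CCGGAAG lay in 24.24% of the members' windows and 9.12% of all, the YY1 letters AAGATGGC in 13.64% and 2.88%, and the ERR letters AAGGTCA in 10.61% and 4.66%. CCGGAAG ends in the AAG that opens both AAGGTCA and AAGATGGC, so these matches can overlap. Median GC content was 57.3% in the members' windows and 52.7% in all windows, and such matches are descriptions of letters, not of binding.

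Promoter windows follow for 4 of the 8 subunits that had an unadjusted p under 0.05 between the groups, as examples from complexes I, III, IV and V. Not shown are the windows of Atp5e (ETS and ERR letters), Uqcrh (ETS letters) and Ndufa13 (none of the letters). A link between the letters and the differences between groups was not tested. The windows shown are written 5′ to 3′ along the gene, with NRF1 or ETS letters in capitals. On the opposite strand CCGGAAG reads CTTCCGG. Ndufs8 (complex I, chr19:3912725-3913024, minus strand) and Cox6b1 (complex IV, chr7:30626065-30626364, minus strand) each hold the ETS letters close to the start. Uqcrc1 (complex III, chr9:108936398-108936697, plus strand) holds the NRF1 letters at 2 places. The window of Atp5g1 (complex V, chr11:96075582-96075881, minus strand) holds none of the letters searched, which says only that they are not in this window.
Ndufs8: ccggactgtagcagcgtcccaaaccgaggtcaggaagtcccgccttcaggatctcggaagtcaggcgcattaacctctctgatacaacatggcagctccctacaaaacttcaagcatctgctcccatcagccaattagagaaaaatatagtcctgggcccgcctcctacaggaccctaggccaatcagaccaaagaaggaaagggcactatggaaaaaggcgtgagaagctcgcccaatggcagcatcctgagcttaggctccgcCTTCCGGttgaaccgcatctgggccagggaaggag
Cox6b1: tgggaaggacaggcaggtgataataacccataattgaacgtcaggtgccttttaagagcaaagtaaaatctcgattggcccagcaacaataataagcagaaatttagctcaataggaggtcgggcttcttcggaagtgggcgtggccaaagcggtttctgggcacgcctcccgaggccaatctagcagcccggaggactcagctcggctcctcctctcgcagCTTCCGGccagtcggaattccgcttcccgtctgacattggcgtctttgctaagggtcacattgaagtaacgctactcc
Uqcrc1: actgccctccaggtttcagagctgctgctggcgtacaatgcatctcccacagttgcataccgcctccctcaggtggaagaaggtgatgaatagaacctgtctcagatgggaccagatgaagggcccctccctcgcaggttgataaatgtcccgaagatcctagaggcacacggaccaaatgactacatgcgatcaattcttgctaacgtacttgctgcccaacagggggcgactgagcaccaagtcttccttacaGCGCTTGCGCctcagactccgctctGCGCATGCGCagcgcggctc
Atp5g1: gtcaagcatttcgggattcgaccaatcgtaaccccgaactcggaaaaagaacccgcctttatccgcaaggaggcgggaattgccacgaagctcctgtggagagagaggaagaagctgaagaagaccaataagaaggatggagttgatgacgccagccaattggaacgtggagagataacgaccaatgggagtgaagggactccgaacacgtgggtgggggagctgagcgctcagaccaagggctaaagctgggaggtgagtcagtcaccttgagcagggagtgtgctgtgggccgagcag

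Mean expression was higher in HFM than in HFS livers for 60 of the 81 subunits and lower for 21, but the differences were small beside the spread between mice. HFM minus HFS had a median of 0.05 on the log2 scale over the members, from -0.18 to 0.25, with a median standard error of 0.08. The median over all genes was 0.00. At an unadjusted p under 0.05 from limma, fitted over all 23410 rows with a gene symbol, 7 members were higher in HFM livers (8.64%, where 3.57% of all tested rows were higher), 1 was lower (1.23%, where 2.9% of all rows were lower) and 73 passed in neither direction. The study's methods filtered at p below 0.01 and then applied a Bonferroni correction. A 1.2-fold filter was also applied, except for data sets that went into pathway software. At an unadjusted limma p below 0.01 alone, 1 member passed, as did 321 of the 23410 rows. With both the p and the fold filter but without the correction 0 members passed, while 0.696% of all rows did, and 0 members passed a Bonferroni threshold of 0.05. With limma none passed an adjusted p of 0.05 (Benjamini-Hochberg over all tested rows), and 0% of all rows passed it. The adjusted p of the members ran from 0.714 to 0.997. In all 81 members the HFM and HFS mice overlapped, and the share over all genes was not counted. Random assignment of mice separates the groups fully with a probability of 0.000583 per gene, so overlap is the usual state. The 8 subunits past an unadjusted p of 0.05 were 5 without HFM6, 3 without HFS3 and 12 without HFM5.

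**Figure D1:**
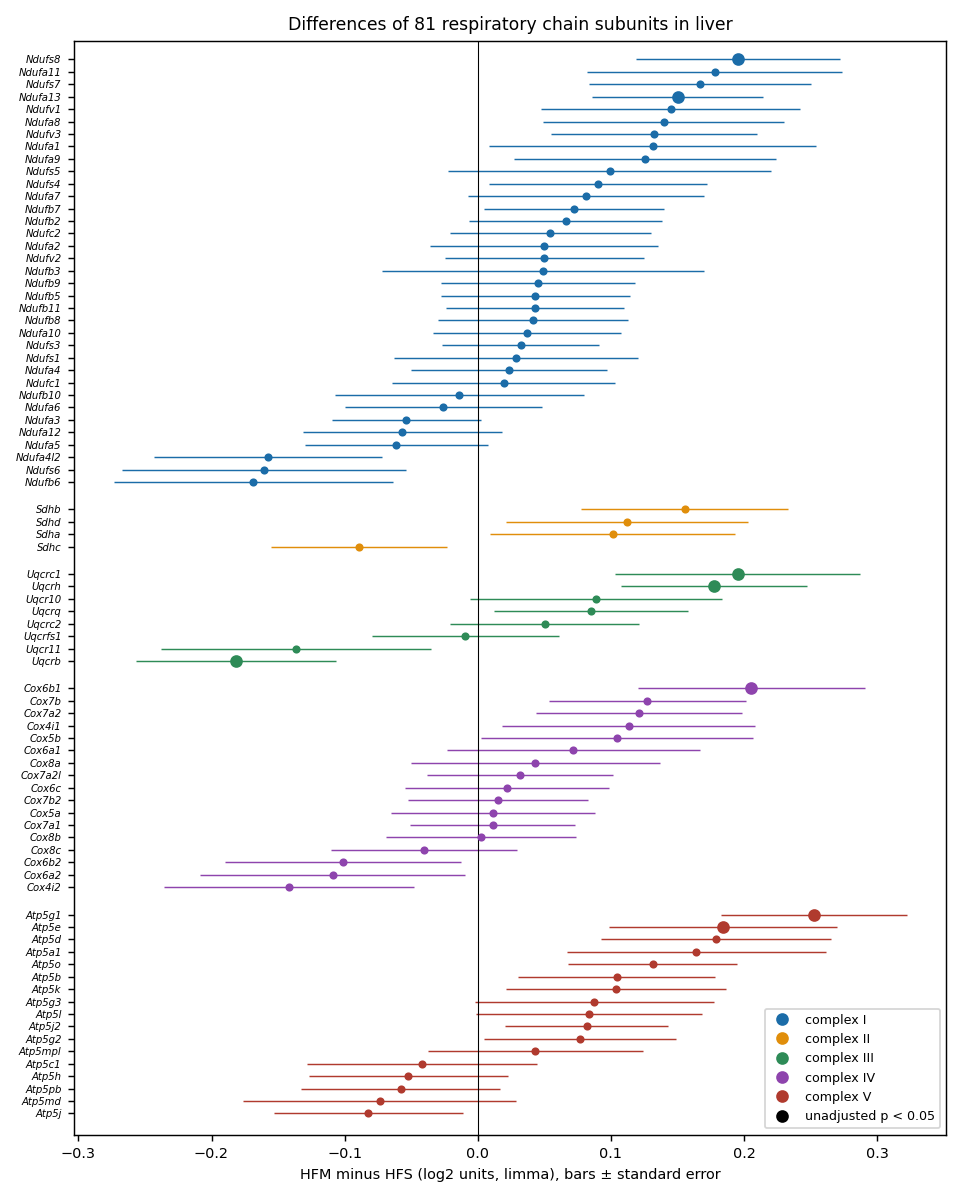
Difference in mean log2 expression, HFM minus HFS, for each of the 81 subunits by complex, with bars of ± 1 standard error from limma (n = 7 mice per group). Large points mark an unadjusted p under 0.05. Most points lie right of 0, between -0.18 and 0.25, and few lie more than 2 standard errors from it.

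In complex I, which takes electrons from NADH, 27 of 35 subunits had a higher mean in HFM livers, with a median difference of 0.05, and 2 of them, Ndufs8 and Ndufa13, passed an unadjusted p of 0.05. The median was 0.01 with quantile normalization, 0.08 with array medians subtracted and 0.03 without HFS2. Ndufs8, a core subunit that binds iron-sulfur clusters, ran from 8.02 to 8.55 with a median of 8.38 in HFM livers and from 7.97 to 8.22 with a median of 8.18 in HFS livers. Of the HFM mice, 5 lay above every HFS mouse, while HFM1 and HFM5 lay among them. The means were 8.34 ± 0.18 and 8.14 ± 0.08 (SD, n = 7 each), a log2 difference of 0.20 with a standard error of 0.08 (limma adjusted p = 0.767, two-sided exact permutation test p = 0.0210).

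Ndufa13, an accessory subunit also known as a partner of the transcription factor STAT3, ran from 7.12 to 7.37 with a median of 7.28 in HFM livers and from 6.96 to 7.24 with a median of 7.12 in HFS livers. All 7 HFM mice lay above the HFS mean, although 3 HFS mice reached the lower part of the HFM range. Its means were 7.26 ± 0.10 and 7.11 ± 0.11, a difference of 0.15 with a standard error of 0.06 (limma adjusted p = 0.768, exact permutation test p = 0.0204). Its unadjusted limma p was 0.0912 with quantile normalization and exceeded 0.05 in 6 of 14 fits with 1 mouse left out.

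The nuclear-encoded core of complex I, which carries the NADH site, the flavin and the iron-sulfur clusters, was measured through 6 genes here, and all 6 had a higher mean in HFM livers, with a median difference of 0.10. Beside Ndufs8 they included Ndufs7, which holds the last cluster before ubiquinone, at 0.17 (standard error 0.08), and Ndufv1, the NADH-binding subunit, at 0.14 (standard error 0.10). The smallest were Ndufs3 and Ndufs1, at 0.03 each. Of 27 accessory subunits, 20 were above 0 and 7 below, with a median of 0.05. These groups of subunits were drawn up with the values in view, so their counts are descriptions.

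Ndufa11, a membrane subunit that stabilises the complex, differed by 0.18 (standard error 0.10) on its brighter row and by 0.05 on its second row, and its HFM mice spread from 7.46 to 8.11 around HFS mice at 7.49 to 7.76. Ndufb9, an accessory subunit of the membrane arm, differed by 0.05 (standard error 0.07). At the low end, Ndufb6 and Ndufs6, an accessory subunit of the membrane arm and a zinc-binding subunit of the matrix arm, differed by -0.17 and -0.16 (standard errors 0.10 and 0.11). Neither passed an unadjusted p of 0.05, and HFM7 had the lowest Ndufb6 and HFM1 the lowest Ndufs6 of the 14 mice. Ndufc1 differed by 0.02 on the row that stands for it and by 0.13 (limma unadjusted p = 0.0407) on a dimmer row.

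In complex II, which oxidises succinate and is also an enzyme of the citric acid cycle, 3 of 4 subunits had a higher mean in HFM livers and none passed an unadjusted p of 0.05. Sdhb, the iron-sulfur subunit, ran from 8.54 to 8.92 with a median of 8.68 in HFM livers and from 8.27 to 8.69 with a median of 8.61 in HFS livers. All 7 HFM mice lay above the HFS mean of 8.54 ± 0.15 with a mean of 8.70 ± 0.14, yet 4 HFS mice lay within the HFM range. The difference was 0.16 (standard error 0.08, limma adjusted p = 0.786). Sdhd, a membrane anchor, differed by 0.11 and Sdha, the flavoprotein, by 0.10 (standard errors 0.09 each), and in both HFM3 was the highest of the 14 mice. Sdhc, the other anchor, differed by -0.09 (standard error 0.07). The median of the complex was 0.11, and 0.04 without HFM3.

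In complex III, which passes electrons from ubiquinol to cytochrome c, subunits went both ways. Uqcrh and Uqcrc1 were higher and Uqcrb lower at an unadjusted p of 0.05. On the rows that stand for them, 5 of the 8 had a higher mean and 3 a lower mean in HFM livers, and the median difference was 0.07. Besides Uqcrb, the lower ones were Uqcrfs1, at -0.01, and Uqcr11, whose second row had the opposite sign. Uqcrh, the hinge protein that helps cytochrome c dock, ran from 8.81 to 9.05 with a median of 8.96 in HFM livers and from 8.53 to 8.97 with a median of 8.77 in HFS livers. Every HFM mouse exceeded the HFS mean, and HFS1, HFS7 and HFS4 reached the HFM range. Its means were 8.96 ± 0.08 and 8.78 ± 0.15, a difference of 0.18 with a standard error of 0.07 (limma adjusted p = 0.767, exact permutation test p = 0.0152).

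Uqcrb, a small subunit near the ubiquinone-binding site, ran from 9.61 to 10.09 with a median of 9.74 in HFM livers and from 9.87 to 10.12 with a median of 9.95 in HFS livers. Of the HFM mice, 4 lay below every HFS mouse, and HFM5 alone lay above the HFS mean. Its means were 9.80 ± 0.17 and 9.98 ± 0.09, a difference of -0.18 with a standard error of 0.08 (limma adjusted p = 0.768, exact permutation test p = 0.0291). The other 2 rows of Uqcrb had differences of -0.21 and -0.10. The unadjusted limma p was 0.0571 with array medians subtracted, and exceeded 0.05 in 4 of 14 fits with 1 mouse left out.

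Uqcrc1, a core protein of the matrix side, ran from 7.95 to 8.59 with a median of 8.26 in HFM livers and from 7.89 to 8.29 with a median of 7.99 in HFS livers. HFM3 was the highest by a clear gap, and HFS1 and HFS7 lay near the HFM median. Its means were 8.24 ± 0.20 and 8.04 ± 0.16, a difference of 0.20 with a standard error of 0.09 (limma adjusted p = 0.772, exact permutation test p = 0.0682). The unadjusted limma p was 0.0568 with quantile normalization, and exceeded 0.05 in 9 of 14 fits with 1 mouse left out. The median of complex III was 0.01 without HFM3, 0.04 without HFS2 and 0.04 with quantile normalization. Uqcr11 had 2 rows of opposite sign, at -0.14 (standard error 0.10) and 0.14 (standard error 0.11), so it has no direction here, and the Rieske protein Uqcrfs1 differed by -0.01 (standard error 0.07).

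**Figure D2:**
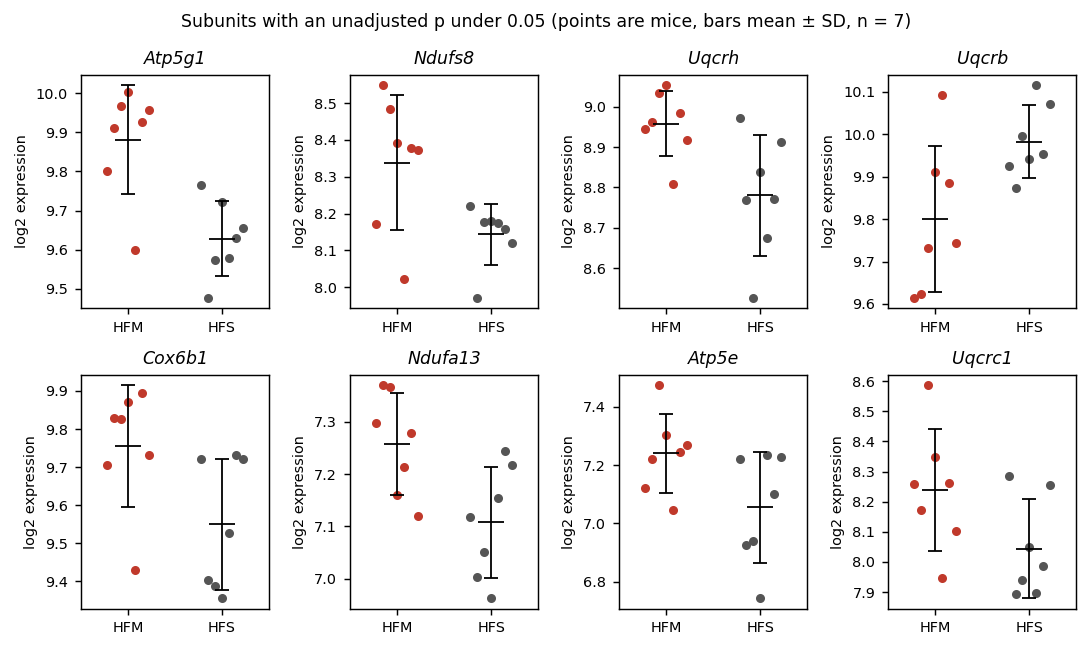
Log2 expression in each mouse for the 8 subunits with an unadjusted p under 0.05, with HFM left of HFS and bars of mean ± SD (n = 7 mice per group). The groups overlap in all 8, 7 have the higher mean in HFM livers, and Uqcrb has the lower mean. Each panel has its own axis, which does not start at 0.

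In complex IV, cytochrome c oxidase, 13 of 17 subunits had a higher mean in HFM livers, with a median difference of 0.02, and 1 passed an unadjusted p of 0.05. The median was 0.01 with quantile normalization and ran from 0.01 without HFS3 to 0.06 without HFS7. Cox6b1, which lies on the outer face where the monomers of the dimer meet, ran from 9.43 to 9.89 with a median of 9.83 in HFM livers and from 9.36 to 9.73 with a median of 9.53 in HFS livers. HFM5 lay apart from the other HFM mice and near the lowest HFS mice, and HFS1, HFS6 and HFS7 reached the range of the other HFM mice. Its means were 9.76 ± 0.16 and 9.55 ± 0.17, a difference of 0.21 with a standard error of 0.09 (limma adjusted p = 0.768, exact permutation test p = 0.0367). In 5 of 14 fits with 1 mouse left out its unadjusted limma p exceeded 0.05.

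Several subunits of cytochrome c oxidase come in isoforms. The 10 that are ubiquitous or typical of liver all had a higher mean in HFM livers, with a median of 0.09, while the 7 known from muscle, lung or testis had 3 above 0 and 4 below, with a median of -0.04. These 2 sets were also drawn up with the values in view, and the 7 are dim here, with rows at 2.54 to 5.06 where the liver forms lie at 7.35 to 10.20. Among other genes, 45.6% lay below 0 at a level of 2 to 3, 60.7% at 3 to 4, 63.1% at 4 to 5 and 45.0% at 5 to 6. None of the 7 passed an unadjusted p of 0.05.

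By pair, Cox4i1 of most tissues differed by 0.11 (standard error 0.10) and Cox4i2, the lung form, by -0.14 (standard error 0.09). Cox6a1, the liver form, differed by 0.07 and Cox6a2, the heart and muscle form, by -0.11 (standard errors 0.09 and 0.10). Cox6b2 of testis differed by -0.10 (standard error 0.09), beside the 0.21 of Cox6b1. Cox7a2, the liver form, differed by 0.12 (standard error 0.08), and Cox7a1, the muscle form, by 0.01 (standard error 0.06). Cox7b differed by 0.13 (standard error 0.07) on its brighter row and by 0.07 (standard error 0.10) on its second row. Cox7b2 differed by 0.02, which was -0.019 with array weights. Cox8a differed by 0.04, Cox8b by 0.00 and Cox8c by -0.04. The difference between isoforms of a pair was not tested.

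Ndufa4, often counted as a subunit of complex IV in place of complex I, differed by 0.02 (standard error 0.07), and its paralog Ndufa4l2, known to be induced by low oxygen, by -0.16 (standard error 0.09). The HFM mice had Ndufa4l2 at 4.23 to 4.82 and the HFS mice at 4.50 to 4.79, on a dim row.

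In complex V, the ATP synthase, 12 of 17 subunits had a higher mean in HFM livers, with a median difference of 0.08, and Atp5g1 and Atp5e passed an unadjusted p of 0.05. Atp5g1 is 1 of 3 genes for subunit c, which forms the proton-driven ring, and all 3 encode the same mature protein. It ran from 9.60 to 10.002 with a median of 9.93 in HFM livers and from 9.48 to 9.76 with a median of 9.63 in HFS livers. Of the 7 HFM mice, 6 lay above every HFS mouse, and HFM5 lay below the HFS mean. Its means were 9.88 ± 0.14 and 9.63 ± 0.10, a difference of 0.25 with a standard error of 0.07, or 1.19-fold (limma unadjusted p = 0.00193, adjusted p = 0.714, exact permutation test p = 0.00408). Its second row differed by 0.22 (limma unadjusted p = 0.00236). Among the members it had the smallest p.

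The other genes of the c-ring differed less, Atp5g3 by 0.09 (standard error 0.09) and Atp5g2 by 0.08 (standard error 0.07). HFM3 was the highest of the 14 mice in Atp5g3, at 9.74, while HFM1 was the highest in Atp5g2, at 9.12. Whether the 3 genes differ from one another in their response was not tested.

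Atp5e, the epsilon subunit of the central stalk, ran from 7.05 to 7.47 with a median of 7.25 in HFM livers and from 6.74 to 7.24 with a median of 7.10 in HFS livers. The highest was HFM3 and the lowest HFS4, and 4 HFS mice lay within the HFM range. Its means were 7.24 ± 0.14 and 7.06 ± 0.19, a difference of 0.18 with a standard error of 0.09 (limma adjusted p = 0.770, exact permutation test p = 0.0559). With quantile normalization its unadjusted limma p was 0.0956, and it exceeded 0.05 in 9 of 14 fits with 1 mouse left out.

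In the F1 part, which makes ATP, 4 of 5 subunits lay above 0, with a median of 0.16. Atp5d and Atp5a1, the delta and alpha subunits, differed by 0.18 and 0.16 (standard errors 0.09 and 0.10), Atp5b, the catalytic beta subunit, by 0.10 (standard error 0.07), and Atp5c1, the gamma subunit, by -0.04 (standard error 0.09). In the peripheral stalk, which holds F1 still against the ring, 3 of 4 lay below 0, between -0.05 and -0.08. Of these, Atp5pb lay at -0.06 on the row that stands for it but at 0.01 on its second row. Atp5o, the oligomycin sensitivity protein at the top of the stalk, differed by 0.13 (standard error 0.06, limma adjusted p = 0.776). Of 5 small membrane subunits 4 lay above 0, with a median of 0.08. The 6 rows of Atp5l, subunit g, ran from -0.01 to 0.08.

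Mice of the same group differed more from each other in the subunits than the groups did. Counted against each gene's mean over the 14 mice, HFM4 lay above in 78 of 81 members, HFM3 in 56, HFM6 in 53 and HFM2 in 45, while HFM5, HFM1 and HFM7 lay above in 32, 31 and 29. Of the HFS mice, HFS7 lay above in 63, HFS6 in 56 and HFS1 in 55, while HFS5, HFS3, HFS4 and HFS2 lay above in 27, 20, 16 and 14. Each group thus held mice with most subunits high and mice with most subunits low, and HFM4, HFS6 and HFS7 had a mean above 0 in all 5 complexes while HFM1, HFM5, HFS2, HFS3, HFS4 and HFS5 had one below 0 in all 5. In HFM4 the share was 96.3% of members, against 66.9% of other genes of like brightness.

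**Figure D3:**
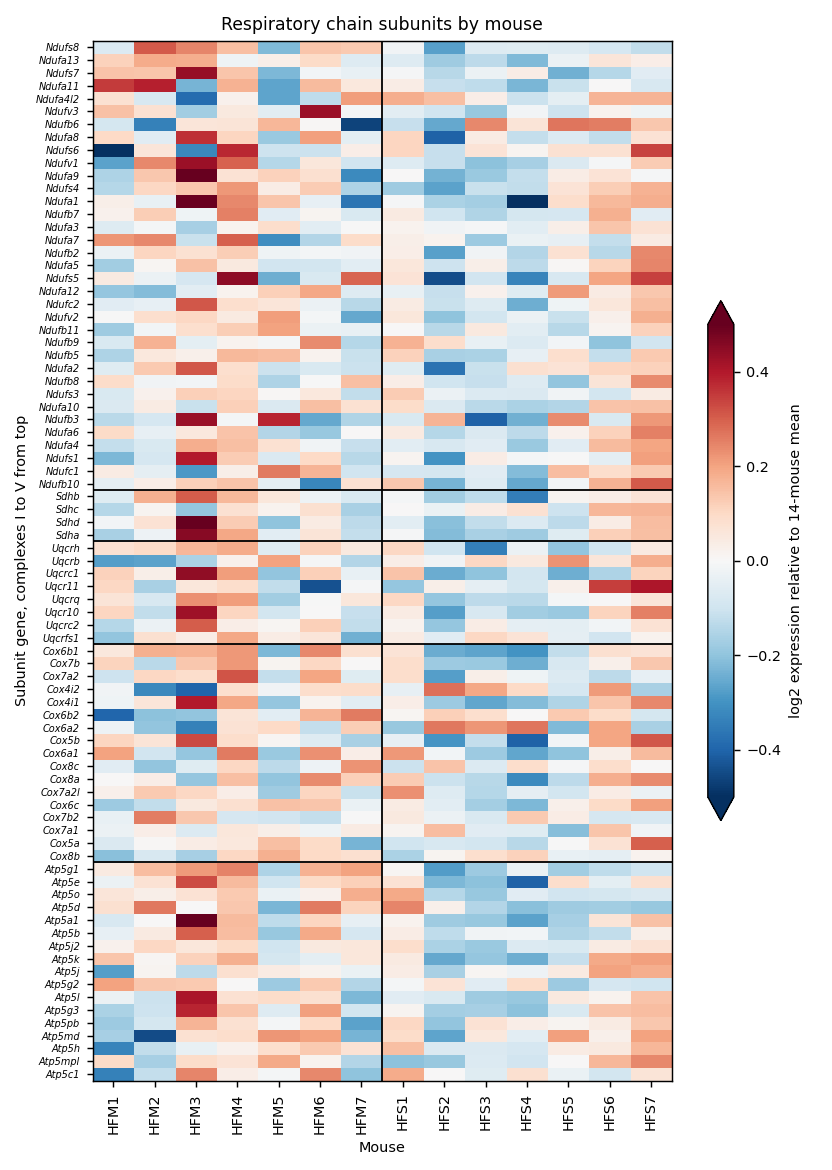
Log2 expression of each of the 81 subunits relative to its mean over the 14 mice, with HFM mice left of HFS mice, complexes I to V from top to bottom, and red for higher and blue for lower values. The column of HFM4 is red in 78 of 81 rows and that of HFS2 in 14.

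The mean over all 81 members, each relative to its 14-mouse mean, was 0.02 ± 0.07 in HFM and -0.02 ± 0.08 in HFS livers (SD, n = 7 each), a difference of 0.05. It was highest in HFM4 at 0.12 and HFM3 at 0.11, then HFS7 at 0.10, and lowest in HFS2 at -0.12 and HFS4 at -0.10. The difference between the group means was therefore smaller than the SD within either group. By complex it was 0.05 for complex I, 0.07 for II, 0.03 for III, 0.03 for IV and 0.07 for V, also within the SD in each case. The absolute difference exceeded the gene's own within-group SD in 12 of 81 members and in 696 of 6269 genes of like brightness. The median of the members was 0.03 without HFS2 and 0.08 without HFS7.

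**Figure D4:**
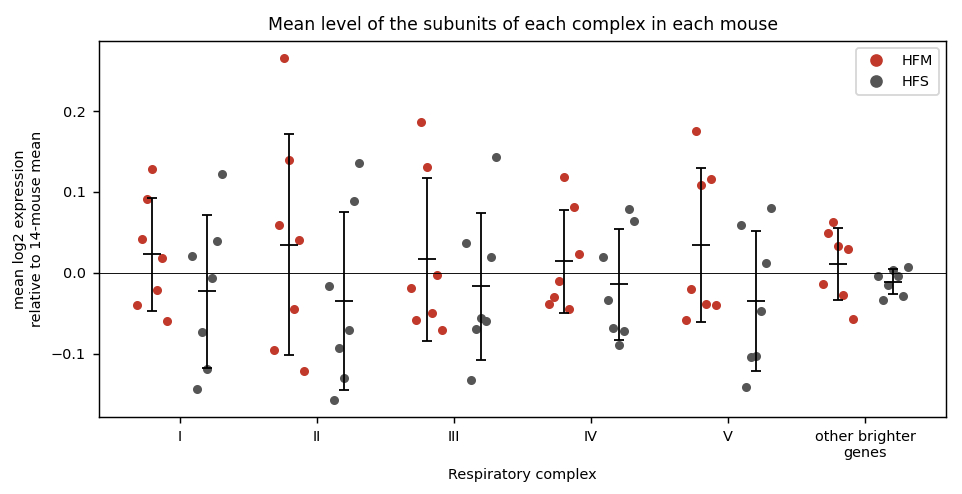
Mean over the subunits of each complex in each mouse, as log2 expression relative to each gene's 14-mouse mean, beside the mean of 9896 other genes above the median brightness, with HFM left of HFS and bars of mean ± SD (n = 7 mice per group). The groups overlap in all 5 complexes.

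Other bright genes also lay above 0 more often than not, by a margin that depended on the scaling of the arrays. Among 6269 other genes within the brightness range of the middle 80% of members (mean log2 level 5.45 to 9.62), 65.3% had a higher mean in HFM livers, against 74.1% of the members, and the median difference was 0.04, against 0.05 for the members. An unadjusted p under 0.05 with a higher mean in HFM livers was found for 371 of them, or 5.92%. That share lay between the 3.57% of all rows and the 8.64% of the members. These genes matched the members in range only, and their median level was lower. At levels of 7 to 8, 8 to 9 and 9 to 10 the share of other genes was 5.94%, 6.55% and 9.61%. In those bands 2 of 21, 3 of 23 and 2 of 16 members passed as higher. At 6 to 7 and 10 to 11 the share was 5.66% and 10%, and 0 members passed. These shares were not compared by a test. With quantile normalization 69.1% of the members and 53.7% of the like-bright genes lay above 0, with medians of 0.03 and 0.01. With the median of each array subtracted 77.8% and 74.6% lay above 0, with medians of 0.08 and 0.06.

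Band by band, the members at a mean level of 8 to 9 had a median of 0.08 (23 genes, 17.4% below 0) and other genes of that band a median of 0.04 (35.1% below 0). At 7 to 8 the members had a median of 0.09 (21 genes, 23.8% below 0) and the others 0.05 (30.7% below 0). At 9 to 10 it was 0.07 (16 genes, 25.0% below 0) for members and 0.03 (41.5% below 0) for others, while at 10 to 11 both had a median of 0.06. The members thus lay somewhat further towards HFM in the 3 bands that hold most of them, with no test of that gap.

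**Figure D5:**
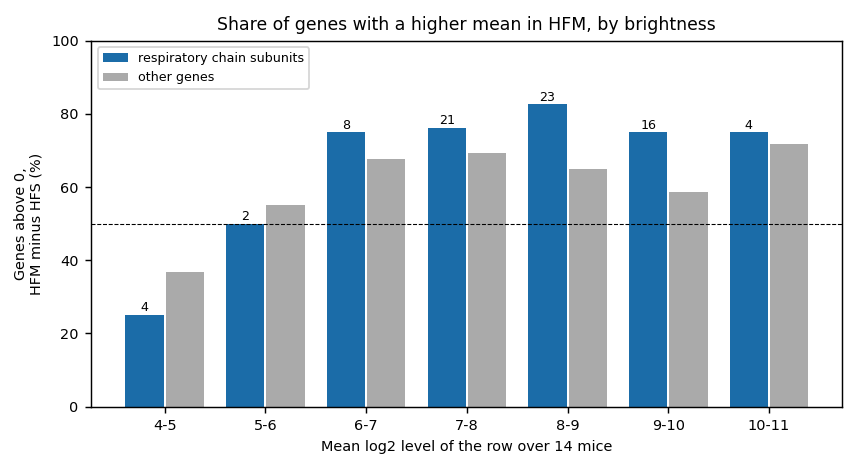
Percent of genes with a higher mean in HFM than in HFS livers, by band of mean log2 level, for the respiratory chain subunits (number of genes above each bar) and all other genes. From a level of 6 upwards the bars of both sets lie above 50% and those of the subunits above those of the other genes. The bands at 4 to 6 and 10 to 11 hold 4 or fewer subunits each, and 3 subunits at 2 to 4 are not drawn.

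Other genes of oxidative phosphorylation outside the subunit symbols differed as little. Of 8 further subunits and carriers, such as cytochrome c and the electron transfer flavoprotein, 6 had a higher mean in HFM livers, none passed an unadjusted p of 0.05, and the median was 0.07. Coq9 and Coq7, which serve ubiquinone synthesis, differed by 0.13 and 0.10 (standard errors 0.07 and 0.08). Of 41 assembly factors, 29 lay above 0 with a median of 0.04, and 2 were higher at an unadjusted p of 0.05, or 4.88% where 3.57% of all rows were. These were Atpaf2, which assists assembly of F1, with a difference of 0.22 (standard error 0.10), and Foxred1, a complex I assembly factor, with 0.20 (standard error 0.09; limma adjusted p = 0.770 for both).

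Among 15 regulators of mitochondrial biogenesis 8 lay above 0 and 7 below, with a median of 0.01, and only Esrrg passed an unadjusted p of 0.05. It was lower in HFM livers, which is 6.67% of the list, where 2.9% of all rows were lower. Esrrg, an estrogen-related nuclear receptor, averaged 5.01 ± 0.21 in the HFM group and 5.26 ± 0.18 in the HFS group, or -0.25 as HFM minus HFS (standard error 0.10, limma adjusted p = 0.767). Pprc1, a coactivator of the PGC-1 family, differed by -0.17 (standard error 0.09), Nrf1 by -0.14 (standard error 0.08) and Ppargc1a, which encodes PGC-1 alpha, by 0.16 (standard error 0.14). Of the factors named with the promoter letters, Nrf1, Gabpa at 0.10, Yy1 at -0.04 and Esrra, which encodes ERR alpha, at -0.01 did not pass the threshold. Esrrg, which did, also belongs to the ERR family. Of 8 genes of coupling and exchange 6 lay above 0 and none passed, with Slc25a4, an ADP/ATP carrier, at 0.17 and Atpif1, the inhibitor of ATP hydrolysis by complex V, at 0.16 (standard errors 0.11 and 0.10).

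The tissue carried the markers of liver. Of 10 hepatocyte markers 8 lay above 0 and none passed an unadjusted p of 0.05, with a median of 0.04, and albumin (Alb) averaged 13.43 ± 0.05 in HFM mice and 13.52 ± 0.06 in HFS mice. All 12 macrophage and Kupffer cell markers had a higher mean in HFM livers, with a median of 0.30. Mpeg1, Cd5l, C1qb, Cd68 and Marco were higher at an unadjusted p of 0.05 (41.7%, where 3.57% of all rows were). The other 7, among them Clec4f, Timd4 and Vsig4, did not pass. The lowest adjusted p of the 12 was 0.714 (limma). The dimmest row was that of Timd4, at 5.02 in HFM and 4.79 in HFS livers. The mean of these markers ran from -0.25 to 0.76 in HFM mice and from -0.53 to 0.51 in HFS mice. This mean and the mean of the subunits lay on the same side of 0 in 9 of 14 mice. Low on both were HFM5, HFM7, HFS2, HFS3 and HFS4, and high on both were HFM2, HFM3, HFM6 and HFS6. The means lay on opposite sides in 5 mice, HFM1, HFM4, HFS1, HFS5 and HFS7, and their relation was not tested.

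Of 6 skeletal muscle markers 5 lay below 0, with a median of -0.12 on dim rows. Of 5 adipocyte genes 2 lay above 0 and 3 below, with a median of -0.02 and differences from -0.07 to 0.60. The highest was that of Cidea, a lipid droplet protein that fatty liver also expresses, at 6.76 ± 0.55 in HFM and 6.16 ± 1.05 in HFS livers, which did not pass an unadjusted p of 0.05. The part of other cell types in the differences of the subunits was not tested, and in bulk liver fewer cells of a type and less RNA per cell cannot be told apart. Array medians lay between 4.24 and 4.35, and arrays correlated pairwise at 0.970 to 0.991 over all rows.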

How the data were processed

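Liver RNA of 14 mice (7 HFM, 7 HFS) was measured, 1 array per mouse, and groups came from the labels. The deposited values are log2 expression, 1 row per probe set, which the authors summarized and normalized with Affymetrix Expression Console. Its algorithm is RMA in the labels but PLIER in the paper. Not given in the sources used here are versions, probe annotation and genome build. Multi-array normalization makes values comparable between mice for a row but not between rows, and its effect on small shifts shared by many genes was tried through 2 other scalings.

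HFM minus HFS was computed with limma 3.58.1 in R 4.3.3 (lmFit and eBayes, no covariate) over the 23410 rows with a gene symbol, of which 21789 have exactly 1, and 12146 rows without a symbol were left out. p values were adjusted over all 23410 rows (Benjamini-Hochberg). Exact permutation tests are two-sided over all 3432 assignments of mice to groups, with 0.000583 as the smallest p they can give. p values measure the spread between mice, and 7 mice per group limit the precision. Scripts were tested on simulated data. Rows shared by several genes (6 for these subunits) were not used, and no filter on signal was set.

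The members, gene lists and tests were chosen with earlier results of these data known, and the subunit groups by role after their values were seen. Named are members with an unadjusted p under 0.05, the 2 largest differences and the brightest member of each complex, members of isoform families, and the 2 smallest p of each list of related genes. Ndufb6, Ndufs6, Ndufs7, Ndufs3, Ndufs1, Ndufv1, Ndufc1, Sdhc, Uqcr11, Uqcrfs1, other Atp5 subunits and some listed genes were named after their values were seen. Promoter windows are from RefSeq (GRCm38.p6). Same-numbered mice of the 2 groups were not paired, since their deviations correlated at -0.20 to 0.14 and the labels give no link. No batch or scan date is given in the sources used here. Alternatives were a replicate block, 2 scalings, a filter on dim rows, other variance models, array weights, all rows, the mean of a gene's rows, a Bonferroni correction and each mouse left out.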

Additional observations from a re-analysis of the deposited data

Results flagged for a closer look

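In 4 of 88 groups of 7 mice checked, over 38 members and other named genes and 6 means of subunits, the highest or lowest mouse lay apart from the rest, with a gap to its neighbour that took a share of the group's range above Dixon's critical value. Chance alone gives about 1 in 20 groups. HFM5 had Cox6b1 at 9.43, where the next HFM mouse was at 9.70 and the highest at 9.89, and without HFM5 the difference in Cox6b1 was 0.26. HFM5 also had Coq9 at 7.57, where the next HFM mouse was at 7.89 and the highest at 8.03. HFS2 had Ndufs8 at 7.97, where the next HFS mouse was at 8.12 and the highest at 8.22, and Ndufs8 passed an unadjusted p of 0.05 (limma) without HFS2 as well. HFS6 had Foxred1 at 5.27, where the next HFS mouse was at 5.42 and the highest at 5.48.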

How the results depend on the processing

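No subunit passed an adjusted p of 0.05 (limma) under any alternative, with 0 also after a Bonferroni correction and without each mouse, while 8 passed an unadjusted p of 0.05. That count was 5 with a trended and robust prior and 3 to 12 with each mouse left out (3 without HFS3, 5 without HFM6, 12 without HFM5). The count of subunits higher in HFM livers, 7, was 4 with that prior, 11 with the median of each array subtracted, and 2 to 11 with each mouse left out (4 without HFM4, HFM6, HFS2 or HFS4, 2 without HFS3, 11 without HFM5). The p and fold filters of the methods, without the Bonferroni step, passed 1 subunit with the array medians subtracted and 0 to 1 without each mouse. Without each mouse 55 to 62 subunits lay above 0. With the mouse number as a replicate block the count was 7, of which 5 were among the 8, and Atp5e, Ndufa13 and Uqcrc1 were lost. The same 3 were lost with quantile normalization and with the trended prior, Uqcrb with array medians subtracted, Atp5e with array weights, and Atp5e and Uqcrc1 with an unmoderated test, with brighter rows only and with all rows. Atp5g1 and Ndufs8 kept an unadjusted p under 0.05 in all 14 fits with a mouse left out (highest 0.00543 and 0.0494), and Uqcrh lost it in 1, Uqcrb in 4, Cox6b1 in 5, Ndufa13 in 6 and Uqcrc1 and Atp5e in 9 each. With each mouse left out the median difference was 0.03 to 0.08 over all subunits, 0.03 to 0.07 in complex I, 0.04 to 0.14 in II, 0.01 to 0.08 in III, 0.01 to 0.06 in IV and 0.06 to 0.11 in V. With quantile normalization the medians of complexes I and IV were 0.01 each and that of III 0.04. Signs turned for genes near 0, namely Cox7b2 with array weights (-0.019) and, with 1 mouse left out, Cox7a1 (-0.023 to 0.038), Cox7b2 (-0.026 to 0.038), Cox8a (-0.0061 to 0.086), Cox8b (-0.028 to 0.037) and Ndufa4 (-0.0056 to 0.058). The cause of these changes was not tested. Across the other settings 312 comparisons with the values reported kept direction and side of the threshold, 22 fell short of it and 2 passed it. Brightness over background could not be assessed, since no detection call is in the deposited values.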
